A study of Mus musculus with 7 samples.

Results

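Type 2 cytokines and their regulators were followed in CD8+ T cells exposed to small extracellular vesicles (sEVs) from the leukemia microenvironment. The 10 genes were taken by symbol from the 55367 genes of the deposited count table. They are the cytokines *Il4*, *Il5*, *Il13*, and *Il10*, the receptor chains *Il9r* and *Il4ra*, the enzyme gene *Il4i1*, and the transcription factor genes *Gata3*, *Maf*, and *Nfil3*. Of the 10, 7 had enough counts to be tested. *Il9r* rose and *Nfil3* fell in cells given LME-sEVs, and the other 5 tested genes did not pass the correction. *Il9r* had enough counts only through the libraries in which it was higher. *Il4* and *Il5* were at or near 0 in all 7 libraries.

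The cells were CD8+ T cells, given as sorted by FACS from spleens of Foxp3 YFP/cre mice, a reporter and Cre strain for regulatory T cells that every library shared. According to the methods mice were 8 to 10 weeks old unless stated otherwise. For cultured CD8+ T cells the methods describe negative selection with a kit, and which isolation was used is not settled here. The cells of 4 libraries received HCME-sEVs, vesicles from spleens of healthy mice. Those of 3 libraries received LME-sEVs, vesicles from spleens of leukemic Eμ-*TCL1* mice, in which an immunoglobulin enhancer drives the *TCL1* oncogene in B cells. These group sizes follow the sample annotation, whereas the study's figure legend for 48 hours gives 4 with LME-sEVs and 3 with HCME-sEVs. Treatment lasted 48 hours with 100 μg/ml of sEVs according to the sample annotation, whereas the methods describe amounts matched to each kind of spleen. The methods for CD8+ cultures after kit isolation add plate-bound anti-CD3, CD28 antibody, and IL2, with which the controls would be activated cells. Whether these cultures received them is likewise not settled. No library came from cells without sEVs. An sEV preparation holds everything that a spleen secretes into the fraction, so the comparison is between the vesicles of a leukemic and of a healthy spleen. The annotation gives neither the mouse behind a culture nor whether cultures shared a vesicle preparation, so p-values measure the spread between these libraries, which may be technical.

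IL4, IL5, and IL13 are the classical type 2 cytokines, made by CD4+ T helper 2 cells and innate lymphocytes and, under some conditions, by CD8+ T cells. Their genes sit at the same locus, where GATA3 opens the chromatin and NFAT and Maf act on promoters after T-cell receptor signaling. IL4 and IL13 signal through the IL4 receptor alpha chain, encoded by *Il4ra*, to the transcription factor STAT6, and IL9 signals through the IL9 receptor chain together with the common gamma chain. In cytotoxic T cells the opposing program, led by T-bet, Eomes, and Runx3, favors IFNγ.

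In GRCm38 with the GENCODE vM21 annotation, *Il4* (chromosome 11, 53602982 to 53618669, minus strand) and *Il13* (chromosome 11, 53631324 to 53634702, minus strand) are neighbors, with *Rad50* between *Il13* and *Il5* (chromosome 11, 53720794 to 53725106, plus strand). *Il9r* lies elsewhere on the same chromosome (32187541 to 32200279, minus strand) and *Nfil3* on chromosome 13 (52967209 to 52981073, minus strand). RefSeq promoter windows of GRCm38.p6, from 250 bases before to 50 bases after the start of the transcript, matched 8 of the 10 genes in 9 windows; *Il10* and *Maf* were not matched. The windows of *Il4* and *Il13* are printed because these neighbors differed in whether transcript was seen in every library. Those of *Il9r* and *Nfil3* are printed because these genes passed the test. Each is given 5′ to 3′ on the strand of the gene, and capitals mark the motifs searched on both strands.
Il4, chr11:53618616-53618915, minus strand: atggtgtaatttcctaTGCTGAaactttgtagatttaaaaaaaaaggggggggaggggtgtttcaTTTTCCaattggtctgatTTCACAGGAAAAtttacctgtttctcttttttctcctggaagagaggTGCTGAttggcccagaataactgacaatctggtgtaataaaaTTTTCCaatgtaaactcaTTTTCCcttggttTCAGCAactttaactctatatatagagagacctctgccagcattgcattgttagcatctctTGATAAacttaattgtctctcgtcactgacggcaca
Il13, chr11:53634653-53634952, minus strand: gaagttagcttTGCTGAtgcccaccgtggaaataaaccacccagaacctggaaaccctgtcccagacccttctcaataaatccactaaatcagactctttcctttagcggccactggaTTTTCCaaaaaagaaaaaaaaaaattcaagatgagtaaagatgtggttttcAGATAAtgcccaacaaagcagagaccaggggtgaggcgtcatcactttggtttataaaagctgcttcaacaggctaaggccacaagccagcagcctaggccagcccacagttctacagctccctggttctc
Il9r, chr11:32200230-32200529, minus strand: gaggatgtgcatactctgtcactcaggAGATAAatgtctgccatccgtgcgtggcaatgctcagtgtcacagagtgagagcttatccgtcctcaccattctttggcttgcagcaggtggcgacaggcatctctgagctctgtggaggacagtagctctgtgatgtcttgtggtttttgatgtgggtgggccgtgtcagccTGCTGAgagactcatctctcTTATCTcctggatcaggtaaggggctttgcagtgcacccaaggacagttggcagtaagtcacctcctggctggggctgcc
Nfil3, chr13:52980990-52981289, minus strand: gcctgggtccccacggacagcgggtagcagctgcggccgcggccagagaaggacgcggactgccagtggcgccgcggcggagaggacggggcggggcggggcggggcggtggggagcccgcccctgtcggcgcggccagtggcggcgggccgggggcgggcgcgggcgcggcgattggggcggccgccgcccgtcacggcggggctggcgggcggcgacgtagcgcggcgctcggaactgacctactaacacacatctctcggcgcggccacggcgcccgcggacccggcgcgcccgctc

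The searched motifs were a GATA motif (AGATAA or TGATAA), the core of the NFAT site (GGAAAA), the core of the Maf recognition element (TGCTGA), an Nfil3 motif (TTACGT or TTATGT), and a STAT6 motif (TTC and GAA 4 bases apart). The GATA motif was present in 18.6% of 32851 promoter windows and in 3 of the 9 windows here, namely those of *Il9r*, *Il13*, and *Il4*. In the *Il9r* window it began 223 and 30 bases before the start of the transcript, the latter on the opposite strand. *Il13* held it 81 bases before the start, and *Il4* 14 bases after it. The NFAT core, found in 23.4% of all windows, occurred 4 times in the *Il4* window and 1 time in that of *Il13*. The core of the Maf element occurred in 19.5% of all windows and in 5 of the 9, with 3 matches in *Il4* and 1 each in *Il13*, *Il9r*, *Gata3*, and *Il5*. *Il4* alone among the 9 windows held the STAT6 motif (6.95% of all windows), 167 bases before the start and overlapping an NFAT core, and *Il5* alone held the Nfil3 motif (11.9% of all windows). The window of *Nfil3*, 81.7% G and C, had none of these motifs, nor had those of *Il4ra* and *Il4i1* or a window inside the *Il4* gene (chr11:53617289-53617588). A match is a string of letters and was not tested for binding.

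Gene expression was measured by RNA-seq of 3′ ends, with totals between 3689831 and 5030522 counts of unique molecules per library. Levels are in CPM, counts relative to the size of a library, scaled with edgeR's TMM method (a trimmed mean of log ratios), and 3 counts, the smallest level taken as shown, amounted to between 0.596 and 0.813 CPM before this scaling. This floor and the exact counting intervals of pooled ratios cover counting error only. SEs and intervals of log2 fold changes were computed from the fold change and F statistic of the edgeR test. They are approximate and also take in the spread between libraries. Tests were run on the 12623 genes that averaged 5 or more counts over the libraries by edgeR's quasi-likelihood test, and false discovery rates (FDR) were adjusted over all of them. A gene was called at an FDR under 0.05, and a DEG also had a log2 fold change beyond 1. Markers of CD8+ T cells were abundant, with *Cd8a* between 341 and 435 CPM and *Cd3e* between 107 and 152 CPM, whereas *Cd4* had at most 0.582 CPM. Replicate libraries differed by more than counting noise (chi-square over its degrees of freedom, 2.12 to 6.13).

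Of the 7 tested genes, 2 were called, against 8.96% of all tested genes. The 1 that was higher with LME-sEVs stands beside 3.75% of all tested genes called in that direction, and the 1 that was lower beside 5.21%. Of the 7, 1 was a DEG, in the upward direction, against 1.28% of all tested genes (0.626% upward and 0.658% downward). That DEG, *Il9r*, and also *Il4i1* reached the filter's mean of 5 counts only through the group in which each was higher. The 7 had a median log2 fold change of -0.57, and the median of all tested genes was 0.010. Libraries of the 2 groups did not overlap for 4 of the 7 tested genes (1 higher and 3 lower with LME-sEVs), against 20.3% of all tested genes (9.49% higher and 10.8% lower). The plot of the 10 genes by library shows which of them separated.

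**Figure D1:**
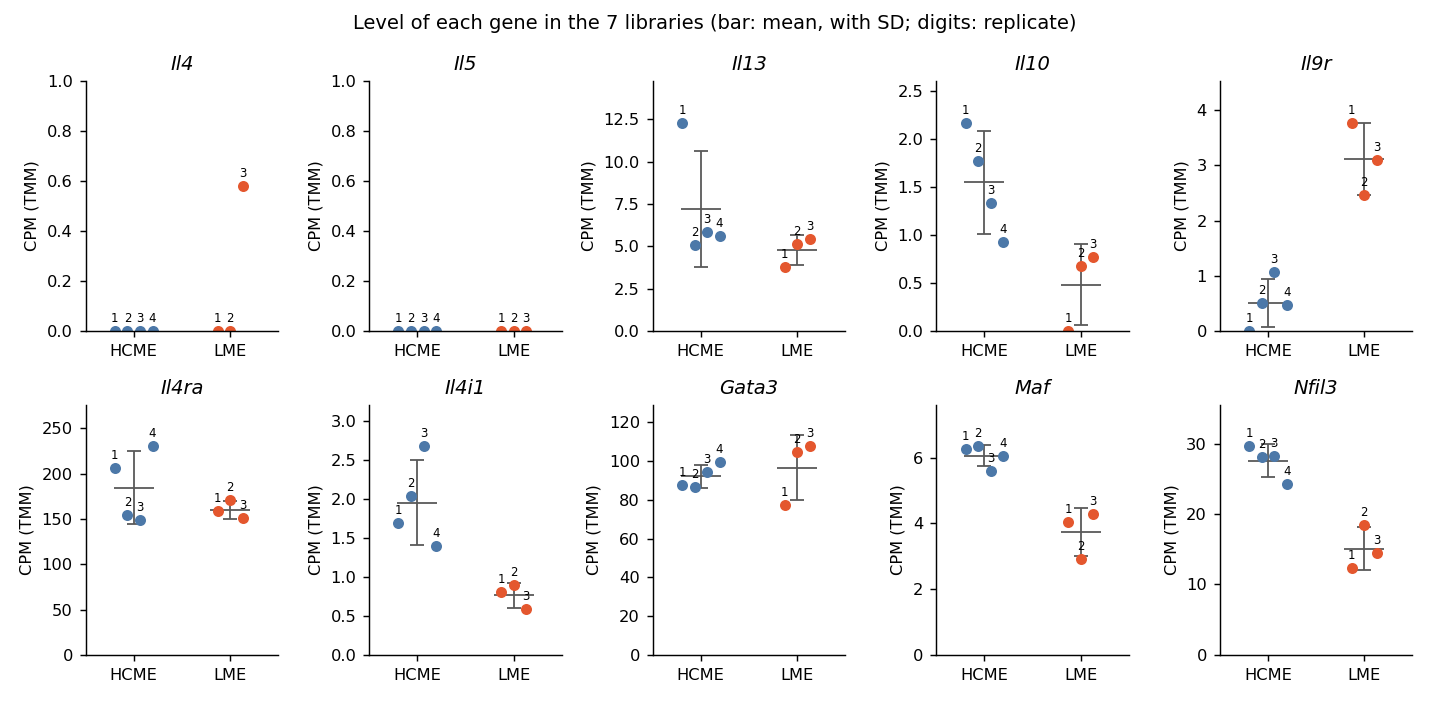
Level of each of the 10 genes in TMM-scaled CPM (vertical axes, from 0, each with its own scale) in the 4 HCME-sEV libraries (blue) and the 3 LME-sEV libraries (orange), numbered by replicate. Gray bars give the mean and SD and are left out for *Il4* and *Il5*. *Il9r* was higher in all 3 LME-sEV libraries, while *Nfil3*, *Maf*, *Il4i1*, and *Il10* were lower in all 3.

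The type 2 cytokines themselves were scarce. *Il5*, the growth factor of eosinophils, had 0 counts in all 7 libraries, which allows a level of up to 0.813 CPM in the shallowest of them. *Il4*, the cytokine that drives type 2 differentiation, had 0 counts in 6 libraries and 3 counts (0.582 CPM) in LME-sEV library 3. That single value is at the floor, so a difference between the groups was not detectable at this depth. *Il9*, which encodes the ligand of the IL9 receptor, had 1 count in the same library and 0 elsewhere.

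*Il13* was detected in every library, between 14 and 51 counts. With HCME-sEVs its level was 12.3, 5.07, 5.87, and 5.59 CPM in libraries 1 to 4, and with LME-sEVs it was 3.77, 5.17, and 5.43 CPM in libraries 1 to 3. HCME-sEV library 1 stood above the other 6 libraries, and the groups overlapped. The log2 fold change of -0.57 (SE 0.31, 95% interval -1.21 to 0.07) did not pass the correction (FDR = 0.281, edgeR). Without HCME-sEV library 1 it was -0.18 (edgeR FDR = 0.787). The SD of the HCME-sEV group was 47.3% of its mean, whereas counting error alone would give 18.5%. In the LME-sEV group these values were 18.7% and 21.5%. In the same library, markers of basophils, mast cells, and eosinophils, cells that can also transcribe *Il13*, summed to 22.6 CPM, against 26.3 to 71.5 CPM in the others, and the basophil protease gene *Mcpt8* had 0.723 CPM, against 2.1 to 16.0 CPM. Their part in the value of *Il13* was not tested.

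*Il10*, a cytokine that restrains inflammation and is made by type 2, regulatory, and effector T cells, was below the filter. It had 9, 7, 5, and 4 counts with HCME-sEVs (2.17, 1.77, 1.33, and 0.931 CPM) and 0, 3, and 4 counts with LME-sEVs (0, 0.674, and 0.776 CPM). All 3 LME-sEV libraries lay below the 4 HCME-sEV libraries. Pooled counts were 25 and 7, a ratio of 0.339 with LME-sEVs (exact 95% counting interval 0.124 to 0.807). The difference of -1.07 CPM between the means gave p = 0.0571 (exact permutation test over samples, two-sided), and no p below 0.0286 is possible with 4 and 3 libraries. When edgeR was run without a filter on counts, its log2 fold change was -1.52 (FDR = 0.261). Because RNA was taken from the whole culture, fewer cells with a transcript and less transcript per cell cannot be told apart for this or any other gene here.

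Among the receptors, *Il9r* carried the change. It was at 0, 0.507, 1.07, and 0.466 CPM in the HCME-sEV libraries and at 3.77, 2.47, and 3.10 CPM in the LME-sEV libraries, that is 0 to 4 counts against 11 to 16. It passed the filter on mean counts only through the LME-sEV libraries, the group in which it was high. The lowest LME-sEV library exceeded the highest HCME-sEV library by more than the range of either group. The log2 fold change was 2.57 (SE 0.55, 95% interval 1.42 to 3.71, edgeR FDR = 0.00615), and pooled counts of 41 and 8 gave a ratio of 6.21 (exact 95% counting interval 2.87 to 15.3). When any 1 library was removed, it lay between 2.16 and 3.15, and the edgeR FDR did not exceed 0.0318. Ordered by level, *Il4ra*, *Gata3*, and *Nfil3* came first in both groups with ranges that did not overlap, followed by *Il13* and *Maf*, whose ranges did. *Il4i1*, *Il10*, and *Il9r* followed with HCME-sEVs, each overlapping the next. With LME-sEVs *Il9r* came after *Maf*, whose range it overlapped, and above *Il4i1* and *Il10*, whose ranges it did not overlap. Levels of different genes are compared here per captured 3′ end, in which gene length does not enter but the annotated end does.

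*Il2rg*, the common gamma chain with which the IL9 receptor chain pairs, was abundant in both groups at 319 ± 45.4 CPM (mean ± SD, n = 4) and 328 ± 8.01 CPM (mean ± SD, n = 3). Its log2 fold change of 0.04 (edgeR FDR = 0.854) turned to -0.03 without HCME-sEV library 2. Genes whose log2 CPM followed that of *Il9r* most closely over the 7 libraries, among 9695 genes averaging 20 or more counts, were *Bmpr2* (r = 0.993), *Fbxo32* (r = 0.989), and *Abcd3* (r = 0.985). These correlations are descriptions over the same libraries that define the groups, and of these genes *Fbxo32*, a ubiquitin ligase subunit, was called (log2 fold change 0.73, edgeR FDR = 0.0064).

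*Il4ra*, the chain shared by the receptors for IL4 and IL13, was the most abundant of the 10 genes. It was at 206.5, 154.1, 148.6, and 230.2 CPM with HCME-sEVs and at 159.0, 170.6, and 151.0 CPM with LME-sEVs. Libraries 1 and 4 of the HCME-sEV group were above all the others, and libraries 2 and 3 lay at the level of the LME-sEV group. Its log2 fold change was -0.21 (SE 0.12, 95% interval -0.46 to 0.04, edgeR FDR = 0.317), an interval that leaves out a fall to a log2 fold change below -0.46. The other chain of the IL13 receptor, *Il13ra1*, had 20 counts over all libraries and was below the filter.

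*Il4i1* encodes an L-amino acid oxidase that is induced by IL4 and depletes phenylalanine around T cells. Its level was 1.69, 2.03, 2.67, and 1.4 CPM with HCME-sEVs and 0.807, 0.899, and 0.582 CPM with LME-sEVs. The LME-sEV libraries were all below the HCME-sEV libraries, but they rested on 3 or 4 counts each. A log2 fold change of -1.32 (SE 0.50, 95% interval -2.37 to -0.27) did not pass the correction (edgeR FDR = 0.112), and pooled counts of 10 and 31 gave a ratio of 0.391 (exact 95% counting interval 0.171 to 0.818). Its exons (chromosome 7, 44816387 to 44840809, plus strand) share 97 bases with *Nup62* on the same strand and 3423 bases with *Tbc1d17* on the opposite strand. Whether counting used the strand is not given in the sources used here, so the assignment of these few counts is uncertain.

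Of the 3 transcription factor genes, 1 passed the test. *Nfil3*, a basic leucine zipper factor that acts in natural killer cell development and on cytokine genes of T cells, fell in cells given LME-sEVs. It was at 29.6, 28.1, 28.3, and 24.2 CPM with HCME-sEVs and at 12.4, 18.4, and 14.5 CPM with LME-sEVs. All LME-sEV libraries were below the lowest HCME-sEV library. The log2 fold change was -0.86 (SE 0.15, 95% interval -1.17 to -0.55, edgeR FDR = 0.00128), a level 0.552 times that of the controls. It lay between -1.02 and -0.74 with each library left out, with an edgeR FDR of at most 0.0141, and passed the cutoff for DEG when LME-sEV library 2 was left out. Genes closest to it over the 7 libraries were *Lat* (r = 0.996), *Sh3bp2* (r = 0.989), and *Tmem154* (r = 0.988). Of these, *Sh3bp2*, an adaptor of antigen receptor signaling, was called (log2 fold change -0.64, edgeR FDR = 0.00779).

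*Maf*, which transactivates *Il4* and *Il10*, was at 6.26, 6.34, 5.60, and 6.05 CPM with HCME-sEVs and at 4.04, 2.92, and 4.27 CPM with LME-sEVs. The groups did not overlap, and in the HCME-sEV group the SD was 5.45% of the mean, less than the 20.2% that counting error gives. Its log2 fold change of -0.69 (SE 0.27, 95% interval -1.25 to -0.13) did not pass the correction over all genes (edgeR FDR = 0.119). The exact permutation test of its level gave p = 0.0286, the smallest that 4 and 3 libraries allow. An antisense gene, *Gm15655*, shares 440 exonic bases with it (chromosome 8, 115682942 to 115707794, minus strand).

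*Gata3*, the master regulator of type 2 differentiation that CD8+ T cells also need for their maintenance, was at 87.9, 86.7, 94.4, and 99.4 CPM with HCME-sEVs. With LME-sEVs it was at 77.2, 104.9, and 107.6 CPM, so that library 1 was the lowest and library 3 the highest of all 7. The log2 fold change was 0.08 (SE 0.10, 95% interval -0.14 to 0.29, edgeR FDR = 0.734), and it was -0.01 without LME-sEV library 3 and 0.21 without LME-sEV library 1 (edgeR FDR = 0.977 and 0.227). A change beyond 0.29 on the log2 scale in either direction lay outside the interval. *Gata3* (chromosome 2, 9857078 to 9890034, minus strand) shares 77 exonic bases with *9230102O04Rik* on its own strand. The plot of fold changes sets the 7 tested genes side by side.

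**Figure D2:**
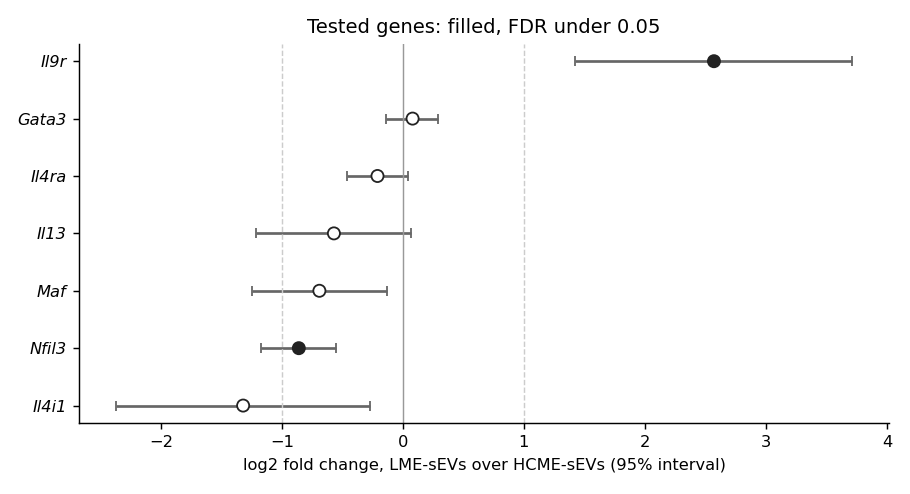
Log2 fold change of the 7 tested genes, LME-sEVs over HCME-sEVs (horizontal axis), with approximate 95% intervals computed from the edgeR test. Filled points had an FDR under 0.05 and dashed lines mark the cutoff of 1. *Il9r* lies at 2.57 and *Nfil3* at -0.86, and the intervals of *Il13*, *Il4ra*, and *Gata3* include 0.

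The surrounding pathway was followed in 6 lists, chosen with earlier results of these data known. Of their tested genes, 25%, 29.4%, 22.7%, 41.2%, 11.1%, and 10% were called, in the order in which the lists follow. Over all tested genes the share was 8.96% (3.75% higher and 5.21% lower with LME-sEVs). Of the receptor chains and ligands of type 2 immunity, 8 of 19 were tested, 1 rose and 1 fell, with a median log2 fold change of 0.12. *Il10ra*, the ligand-binding chain of the IL10 receptor, rose from 28.0 ± 2.52 CPM (mean ± SD, n = 4) to 52.1 ± 5.89 CPM (mean ± SD, n = 3), a log2 fold change of 0.90 (edgeR FDR = 0.000109), while its partner *Il10rb* had 0.13 (edgeR FDR = 0.466). *Il24*, a cytokine of the IL10 family, fell from 20, 8, 4, and 19 counts to 1, 0, and 2 counts, a ratio of pooled counts of 0.0713 (exact 95% counting interval 0.0142 to 0.22; edgeR FDR = 0.00399). *Il24* passed the filter on mean counts only through the HCME-sEV libraries. *Csf2rb*, the beta chain shared by the receptors for IL3, IL5, and GM-CSF, had a log2 fold change of 0.64 (edgeR FDR = 0.219). *Il5ra*, the chain that binds IL5, had 1 count in all.

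Of the 17 genes of IL4 signaling and feedback, all tested, 2 rose, 3 fell, and 12 were not called, with a median log2 fold change of 0.10. Those that fell were feedback inhibitors of cytokine receptors: *Cish* (log2 fold change -0.98, edgeR FDR = 0.000147), *Socs2* (-0.66, 0.00202), and *Socs1* (-0.62, 0.00529). *Cish* was at 239, 171, 145, and 213 CPM with HCME-sEVs and at 109, 90.3, and 93.5 CPM with LME-sEVs, with no overlap. *Stat3*, a transducer for IL6 and IL10, rose by 0.49 (edgeR FDR = 0.000641) and *Stat5b*, a transducer for IL2, by 0.29 (edgeR FDR = 0.0355). The call of *Stat5b* was lost without any 1 of HCME-sEV libraries 1, 2, and 3 or LME-sEV libraries 2 and 3 (edgeR FDR between 0.0511 and 0.176). *Stat6*, the transducer of IL4 itself, was at 63.1 ± 9.72 CPM (mean ± SD, n = 4) and 67.8 ± 4.49 CPM (mean ± SD, n = 3), with a log2 fold change of 0.10 (edgeR FDR = 0.645).

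The list of transcription factors named as favoring type 2 cytokines also holds some, such as *Atf3*, that can restrain them. Of its 24 genes, 22 were tested, 3 rose and 2 fell, with a median of 0.07. *Atf3*, a stress-induced repressor and activator, fell (edgeR FDR = 0.00174) from 17.9 ± 1.14 CPM (mean ± SD, n = 4) to 8.77 ± 2.36 CPM (mean ± SD, n = 3). *Irf4*, induced by T-cell receptor signaling, fell by 0.42 (edgeR FDR = 0.00398). *Prdm1*, which encodes Blimp-1, rose by 0.92 (edgeR FDR = 0.0034) and *Tcf7*, which encodes TCF1, by 0.50 (edgeR FDR = 0.00493). *Ets1* rose by 0.41 (edgeR FDR = 0.0212) and was no longer called without HCME-sEV library 2 or without LME-sEV library 2 or 3 (edgeR FDR between 0.0657 and 0.116).

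Of the 18 genes that oppose type 2 cytokines, 17 were tested, of which 3 rose and 4 fell; the median was 0.02. *Bcl6*, a repressor of effector differentiation, rose from 8.75 ± 2.69 CPM (mean ± SD, n = 4) to 20.2 ± 2.12 CPM (mean ± SD, n = 3), a log2 fold change of 1.22 (edgeR FDR = 0.000662), and *Sox4* rose by 0.97 (edgeR FDR = 0.0064). *Tbx21*, which encodes T-bet, fell by 0.41 (edgeR FDR = 0.01), *Zbtb32* by 0.45 (edgeR FDR = 0.0051), and *Il12rb1*, a chain of the IL12 receptor, by 0.57 (edgeR FDR = 0.0102). *Ifng* fell by 0.39 (edgeR FDR = 0.0288) with overlapping groups, and its receptor chain *Ifngr1* rose by 0.32 (edgeR FDR = 0.0274); these were named after their values were seen. Without LME-sEV library 2, 2 genes of this list were called, and *Sox4* (edgeR FDR = 0.0764), *Tbx21* (0.0724), *Il12rb1* (0.0645), *Ifng* (0.118), and *Ifngr1* (0.121) were not. *Il12rb1* was also not called without LME-sEV library 1 (edgeR FDR = 0.0578). The call of *Ifng* was lost without HCME-sEV library 2 or 3 or LME-sEV library 1 (edgeR FDR between 0.0528 and 0.176) and with scaling by library size only (edgeR FDR = 0.0528), and that of *Ifngr1* without HCME-sEV library 2 or 4 or LME-sEV library 3 (edgeR FDR between 0.0711 and 0.133).

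Surface receptors of type 2 lymphocytes were tested for 9 of 14 genes, and 1 was called: *Il7r*, the IL7 receptor chain, rose by 0.52 on the log2 scale (edgeR FDR = 0.00125). *Il1rl1*, the IL33 receptor, had -0.10 (edgeR FDR = 0.852), and *Ptgdr2*, the prostaglandin D2 receptor of type 2 cells, had 0 counts in every library. A further gene of this list was called without HCME-sEV library 1 or 2. Of 12 neighbors of the *Il4*, *Il13*, and *Il5* locus, 10 were tested and 1 was called, *Zcchc10* (log2 fold change -0.51, edgeR FDR = 0.00106), and without HCME-sEV library 3 there were 2. *Rad50*, which holds the locus control region of the type 2 cytokines, was at 234 ± 18 CPM (mean ± SD, n = 4) and 231 ± 14.4 CPM (mean ± SD, n = 3). Its log2 fold change was -0.02 (edgeR FDR = 0.918) and 0.02 without LME-sEV library 2. *Kif3a*, next to *Il4*, had 0.08 (edgeR FDR = 0.858), and -0.02 without HCME-sEV library 3 or LME-sEV library 2.

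**Figure D3:**
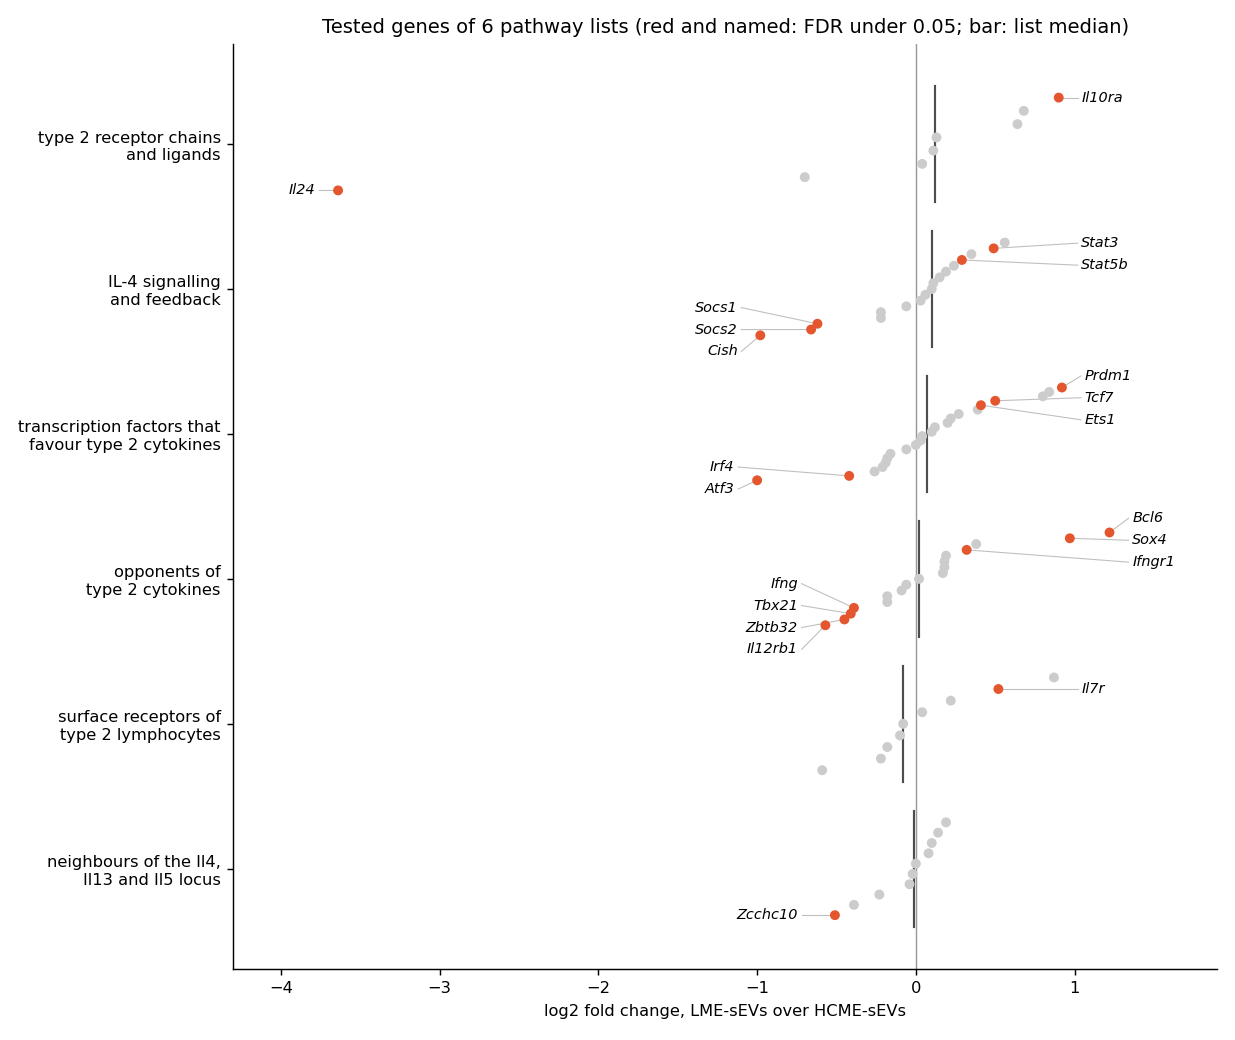
Log2 fold change, LME-sEVs over HCME-sEVs (horizontal axis), of every tested gene of the 6 pathway lists (rows; within a row, genes are ordered by value). Red points with names had an edgeR FDR under 0.05, gray points had not, and vertical bars are list medians, which lie between -0.08 and 0.12.

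Genes of other cell types were read in the same libraries, since basophils, mast cells, eosinophils, and B cells transcribe several of the 10 genes. Beside 8.96% of all tested genes, the share of tested markers called was 37.5% for basophils, mast cells, and eosinophils and 27.3% for B cells. It was 0% for myeloid cells, 33.3% for CD4+ T cells and innate-like lymphocytes, and 18.2% for CD8+ T cells. Of 21 markers of basophils, mast cells, and eosinophils, 8 were tested and 3 rose: *Prg2* (log2 fold change 3.92, edgeR FDR = 0.000165), *Kit* (0.96, 0.00614), and *Mcpt8* (1.43, 0.0341). The 5 other tested markers were not called, and their fold changes were not all positive. The summed level of the list was between 22.6 and 48.0 CPM with HCME-sEVs and between 45.8 and 71.5 CPM with LME-sEVs, so the groups overlapped. *Prg2* passed the filter on mean counts only through the LME-sEV libraries. *Ear1*, *Ear2*, and *Tpsab1* had 0 counts in all libraries. *Mcpt8* was not called without HCME-sEV library 1 or 4 or LME-sEV library 1 or 2 (edgeR FDR between 0.0508 and 0.216) or with DESeq2 (FDR = 0.355), nor was *Kit* without LME-sEV library 2 (edgeR FDR = 0.0537), and without LME-sEV library 2 the list had 1 call. The part of these cells in the values of *Il9r* was not tested.

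Of 18 B-cell markers, 11 were tested and 3 rose: *Ighm* (log2 fold change 0.38, edgeR FDR = 0.0043), *Igkc* (1.06, 0.0158), and *Cd74* (0.54, 0.04). The summed level was between 281 and 326 CPM with HCME-sEVs and between 380 and 409 CPM with LME-sEVs, without overlap, and *Ighm* made up most of it. *Cd79a* was at or near 0, with at most 0.482 CPM, whereas other markers of the lineage were present at low levels: *Ms4a1* at 0.269 to 1.77 CPM, *Cd79b* at 1.87 to 5.58 CPM, *Ebf1* at 3.04 to 6.19 CPM, and *Cr2* at 7.1 to 14.5 CPM. None of these 4 was called. *Ighm* was called with any library left out. *Igkc* was not without HCME-sEV library 2 or LME-sEV library 2 or 3 (edgeR FDR between 0.0539 and 0.108), and *Cd74* was not without HCME-sEV library 1, 2, or 4 or LME-sEV library 2 or 3 (edgeR FDR between 0.0561 and 0.285), nor with the replicate block (edgeR FDR = 0.0606), DESeq2 (FDR = 0.0931), or limma-voom (FDR = 0.0514). Without HCME-sEV library 2 or LME-sEV library 2 or 3, the list had 1 call. *Il4ra* and *Il4i1*, which B cells also transcribe, had log2 fold changes of -0.21 and -1.32 in the same libraries. The part of B cells in the values of *Il4ra* and *Il4i1* was not tested, nor was the source of the B-cell marker transcripts.

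Of 15 myeloid markers, 3 were tested and 0 were called by edgeR, with 0 at an unadjusted p under 0.05; their summed level was between 548 and 697 CPM with HCME-sEVs and between 612 and 676 CPM with LME-sEVs, most of it from *Ly6c2*, which CD8+ T cells also transcribe. *Itgam*, which encodes an integrin chain of myeloid cells and some activated lymphocytes, was below the filter and did not overlap between the groups, at 0 to 0.233 CPM with HCME-sEVs and 1.16 to 1.8 CPM with LME-sEVs. It was the 1 myeloid gene called by edgeR without a filter (FDR = 0.00221) and with at least 5 counts in 3 libraries (FDR = 0.00663). *Clec4a1* did not overlap either, at 0 to 0.253 and 0.269 to 0.674 CPM, while *Adgre1* and *Cd14* had at most 0.269 CPM. The part of myeloid cells in the values of the 10 genes was not tested. Of 10 markers of CD4+ T cells and innate-like lymphocytes, 3 were tested and *Zbtb7b* rose (log2 fold change 0.87, edgeR FDR = 0.0241), a call lost without HCME-sEV library 1 or 4 or any LME-sEV library. Their summed level was between 29.9 and 38.3 CPM with HCME-sEVs and between 34.2 and 40.1 CPM with LME-sEVs. All 11 markers of CD8+ T cells were tested, and *Cd3e* and *Cd3g* rose (log2 fold change 0.36 and 0.49, edgeR FDR = 0.0106 and 0.0405). No gene of this list was called without LME-sEV library 2 or 3, and 1 was without HCME-sEV library 1 or 4. Summed levels of the list were between 4744 and 4825 CPM with HCME-sEVs and between 4933 and 5468 CPM with LME-sEVs, without overlap.

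**Figure D4:**
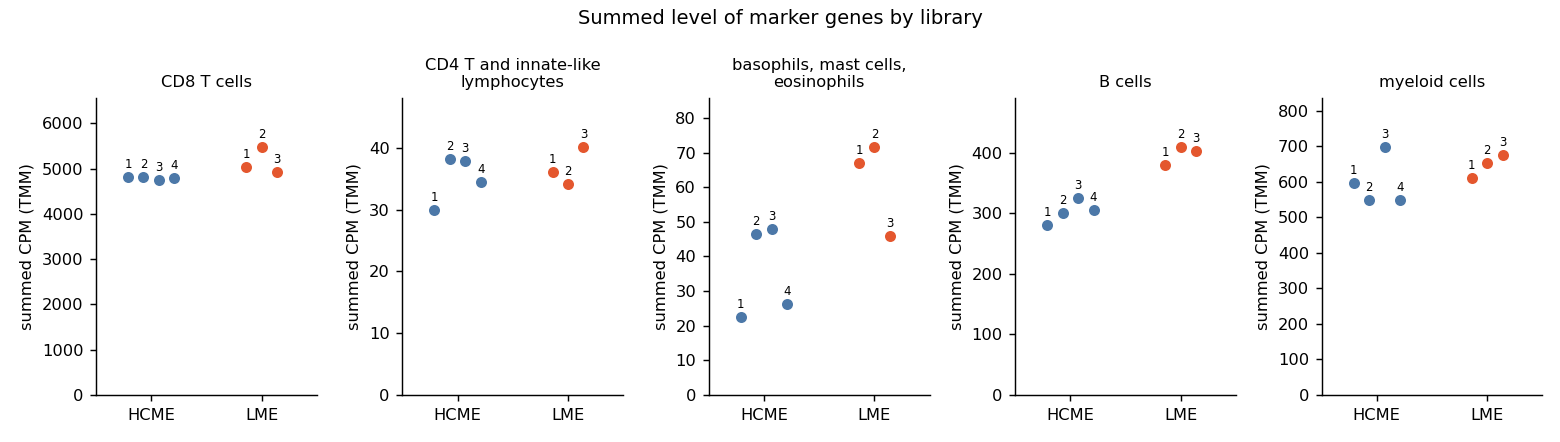
Summed level of each marker list in TMM-scaled CPM (vertical axes, from 0) in the 4 HCME-sEV libraries (blue) and the 3 LME-sEV libraries (orange), numbered by replicate. Sums of B-cell markers (281 to 326 and 380 to 409 CPM) and of CD8+ T-cell markers (4744 to 4825 and 4933 to 5468 CPM) do not overlap between the groups, and HCME-sEV libraries 1 and 4 have the lowest sums of basophil, mast-cell, and eosinophil markers.

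Each fold change was recomputed under 16 alternatives, 7 of which left out a library. *Nfil3* was negative in all 16 (between -1.02 and -0.74) with an FDR under 0.05 in each. *Il9r* was positive in all 16 and had an FDR under 0.05 in the 15 that gave it an adjusted p-value. The alternatives reuse the same 7 libraries, and the fits without a library kept the genes that passed the filter with all 7. *Il9r* passed that filter only through the LME-sEV libraries. *Il13*, *Il4ra*, and *Maf* were negative in all 16, and *Il4i1* in the 15 that kept it, and none of these alternatives gave any of the 4 an FDR under 0.05. *Gata3* was negative in 1 of the 16.

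**Figure D5:**
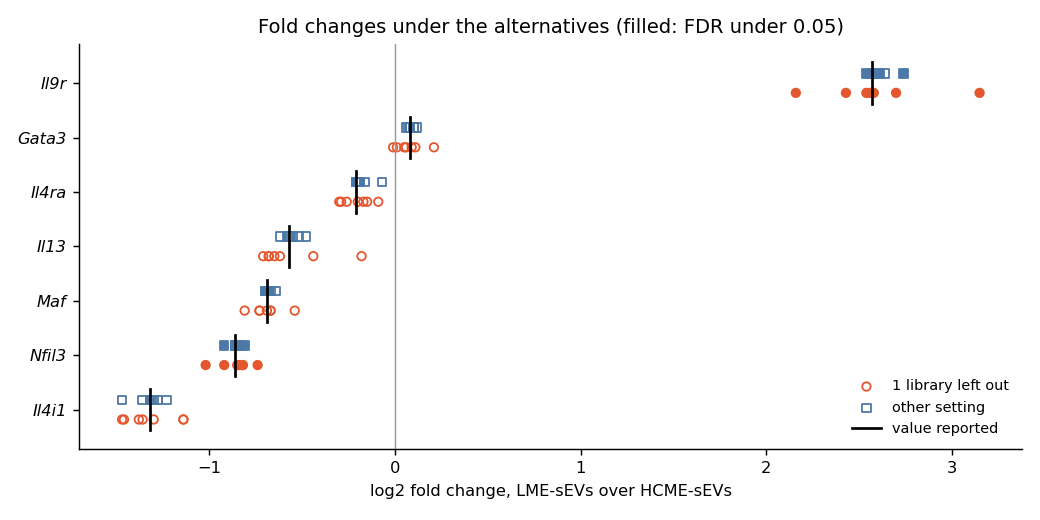
Log2 fold change of the 7 tested genes, LME-sEVs over HCME-sEVs (horizontal axis), as reported (black bars), with 1 library left out (orange circles) and under other settings (blue squares); filled symbols had an FDR under 0.05. The 1 open square of *Il9r* is DESeq2, which gave no adjusted p-value, and the circle of *Il13* at -0.18 is the value without HCME-sEV library 1.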

How the data were processed

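Total RNA of 7 cultures of CD8+ T cells (4 with HCME-sEVs, 3 with LME-sEVs) was sequenced with the QuantSeq 3′ kit with UMIs. Per the methods, the authors used cutadapt 2.10 for trimming, STAR 2.5.3a for mapping (GRCm38), UMI-tools 1.0.0 for collapsing, and featureCounts (Subread 2.0.0) for counting. Raw counts by gene symbol were deposited, not normalized and not filtered; annotation release and strand setting are not given in the sources used here. Collapsing by UMI makes a count a captured molecule, and reads come from 3′ ends, so levels depend on annotated ends and not on gene length.

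Groups and replicate numbers were taken from the sample annotation. Of 55367 genes, the 12623 that averaged 5 or more counts over the libraries were normalized by TMM and tested with edgeR 4.0.16 (glmQLFit, glmQLFTest) in R 4.3.3, with no covariate and adjusting by Benjamini and Hochberg over the 12623 genes. The minimum of 5 counts follows the methods, which do not say how it was applied over libraries; here it applied to the mean. Log2 CPM used a prior count of 2. Totals of 3689831 to 5030522 counts put 3 counts at 0.596 to 0.813 CPM. Single levels were compared by a two-sided exact permutation test. Test steps were first tested on simulated data. Positions and overlaps are from GENCODE vM21 and promoters from RefSeq (GRCm38.p6). The last 300 bases of the transcripts were searched with blast 2.17.0 for near-identical copies (95% over 200 bases), and none was found for the 10 genes.

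The 10 genes and the lists were chosen with earlier results of these data known. The rule for naming genes took the 10 genes, the called genes of each pathway list (at most 5, by smallest FDR), 10 fixed partners (*Il2rg*, *Il13ra1*, *Stat6*, *Il9*, *Il5ra*, *Csf2rb*, *Il10ra*, *Il10rb*, *Rad50*, *Kif3a*), the 3 genes most like each called member, and markers that define a cell type; others are called out where named. Alternatives were other normalizations (DESeq2 size factors, upper quartile, library size only), filters (none, 5 counts in 3 libraries, filterByExpr), tests (DESeq2 1.42.0, limma-voom of limma 3.58.1), the replicate number as a block, and leaving out each library. The values of 1 marker gene are not reported here.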

Additional observations from a re-analysis of the deposited data

Results flagged for a closer look

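In 7 of 48 results compared, a single HCME-sEV library lay apart from the other 3 of its group. Its gap to the nearest library exceeded 0.829 of the range of the group. For continuous values chance gives about 5% (2.4 of 48), a share that need not hold for counts near 0, as for *Il5ra* and *Prg2*. A group of 3, as with LME-sEVs, was not compared. For *Il13* the ratio was 0.889, with library 1 at 12.3 CPM and the others between 5.07 and 5.87 CPM. Library 1 was also the lowest for *Prg2* (ratio 0.873), at 0 counts against 2 in each of the others.

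Library 3 was the highest for *Il10ra* (0.931; 31.7 CPM against 26.5 to 26.9), *Il7r* (0.857; 250 CPM against 188 to 197), *Kit* (0.879; 11.7 CPM against 6.34 to 6.99), and *Il5ra* (1, from 1 count against 0). Library 4 was the highest for *Stat3* (0.831; 562 CPM against 507 to 516). For *Il10ra*, *Il7r*, *Stat3*, and *Kit*, the library apart was on the side of the LME-sEV group.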

How the results depend on the processing

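Counts of called genes moved mainly when a library was left out, which also leaves fewer libraries for the test. Over all tested genes, 1131 were called and 393 to 1293 with each library left out, and 162 DEG became 84 to 181 (105 with DESeq2). Of the 10 genes, 2 were called in every fit that left out a library, and 1 to 2 were DEG, the second being *Nfil3* without LME-sEV library 2. DESeq2 called 1 and had 0 DEG, since its filter on low counts gave no adjusted p-value for *Il9r* (unadjusted p = 0.000297) or *Il4i1*. Calls with each library left out numbered 2 to 7 of the opponents of type 2 cytokines, 1 to 2 of the surface receptors (2 with library size only), 1 to 2 of the neighbors of the locus, 0 to 2 of CD8 T cell markers (1 with DESeq2), 0 to 1 of CD4 T cell markers, 1 to 3 of basophil, mast-cell, and eosinophil markers, and 1 to 3 of B-cell markers. Receptor chains and ligands had 1 call with filterByExpr and 1 with DESeq2, and myeloid markers 1 with no filter and 1 with at least 5 counts in 3 libraries.

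The replicate number as a block left 2 of the 10 genes called, with *Nfil3* at -0.92 (edgeR FDR = 8.47e-05) and *Il9r* at 2.54, and gave 2 calls among the surface receptors. Over all tested genes, 1454 were called with the block, against 1131 without it. Deviations of libraries with the same number correlated at 0.0721, 0.155, and 0.0268, and those with different numbers at -0.206 to 0.0803. Not all of the same-number values were over 0.1, the cutoff taken here, so the numbers were not taken as pairs. Whether they are pairs is not settled here.

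Of 635 values of 40 named genes, 588 kept direction and side of the threshold, 38 lost their call, and 9 changed sign. Those 9 were *Gata3* (-0.01 without LME-sEV library 3; -0.01 to 0.21 over the libraries left out), *Il2rg* (-0.03 without HCME-sEV library 2; -0.03 to 0.12), *Kif3a* (-0.02 without HCME-sEV library 3 or LME-sEV library 2; -0.02 to 0.18), and *Rad50* (0.00 with the upper quartile, 0.02 with library size only, 0.02 with the replicate block, 0.01 when HCME-sEV library 4 and 0.02 when LME-sEV library 2 was left out; -0.07 to 0.02). None of these was called, and the cause was not tested. Scaling by library size only moved the median of all genes from 0.010 to 0.055. Depth limits *Il4*, *Il5*, *Il10*, *Il4i1*, and *Il9r*, each with at most 16 counts in a library.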
